A study of Mus musculus with 12 samples.

Results

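The genes described here encode the machinery that acidifies the lysosome, the proteases that work in it and the most abundant proteins of its membrane. Members were taken by gene symbol, as every row whose name starts with Atp6v or Atp6ap, is Cts followed by 1 letter, or is Lamp followed by a digit, which gave 30 of the 11289 genes in the table. They comprise 18 genes of the proton pump, 10 cathepsins and 2 lysosome-associated membrane proteins. By their known expression, 27 were classed as ubiquitous and 3 as tissue-restricted, namely Atp6v0d2, Atp6v0a4 and Ctss.

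Liver RNA was sequenced from C57BL/6J mice aged 8 to 10 weeks, which the study's methods describe as male, with 4 mice in each of 3 groups. Mice of the Con A + PBS group received concanavalin A (Con A), a lectin from jack beans that stimulates T cells and injures the liver, once at 15 mg/kg by the tail vein, and PBS alone 30 min later. Mice of the Con A + hWJ-MSCs group received the same dose of Con A and, after the same interval, 2000000 mesenchymal stem cells of human Wharton's jelly, the connective tissue of the umbilical cord, in PBS. Livers were taken 24 h after Con A, and the labels do not state what the control mice were given. Human cells in a mouse liver carry human transcripts, and their share of the reads is not known from these values. The labels call the groups' animals separate replicates, so the p-values measure the spread between mice.

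The vacuolar ATPase, or V-ATPase, is a rotary pump in which the cytosolic V1 sector hydrolyses ATP and the membrane sector V0 carries protons into the lysosome, and 2 accessory proteins help to assemble it. Most subunits are made in every cell, while some positions have a second gene used mainly in specialised cells, such as the d2 and a4 subunits of V0 in osteoclasts, macrophages and acid-secreting epithelia. Cathepsins are synthesised as inactive precursors and are processed in the acid lumen, and LAMP proteins line the inner face of the membrane with sugar chains. Transcription of many of these genes is known to be driven by TFEB and its relatives through an E-box that contains the letters CACGTG.

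The promoter letters are shown first because this E-box is a known feature of many lysosomal genes, though it was found in only some of the members. RefSeq promoters, from 250 bases before to 50 bases after a start on GRCm38.p6, were available for 22 of the 30 members, and Atp6v0a2, Atp6v0d2, Atp6v1b2, Atp6v1c1, Atp6v1g1, Atp6v1h, Ctsb and Ctsh had no entry. The palindrome TCACGTGA, searched on both strands and always holding CACGTG within it, was found in 5 of the 22, or 22.7%, against 1.12% of the 27025 genes with a promoter, 2.24% of the 8494 such genes in the expression table and 11.3% of 71 other lysosomal genes. The shorter CACGTG was found in 9 of the 22, or 40.9%, against 8.09% of all genes, 11.8% of those in the expression table and 29.6% of the other lysosomal genes. A 10-letter form of the palindrome, with G before it and C after it, was found in 0 of the 22, against 0.824% of genes in the expression table and 2.82% of the other lysosomal genes. Windows of 30 bases around the 8-letter match are printed below in the direction of each gene, with the match in capitals, because they show it in subunits of both pump sectors and in 2 cathepsins. Ctsa holds the 8-letter match at 2 places, in windows that overlap, and Ctsd holds a further CACGTG. The stretches of Lamp1 and Atp6v0b hold several copies of CACGTG without the 8-letter form, also in capitals, and end at the base before the RefSeq start.
Atp6v1a, chr16:44139373-44139402, minus strand: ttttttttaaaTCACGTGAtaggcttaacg
Atp6v0e, chr17:26676387-26676416, plus strand: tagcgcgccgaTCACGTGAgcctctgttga
Atp6v0d1, chr8:105566050-105566079, minus strand: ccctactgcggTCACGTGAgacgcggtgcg
Ctsd, chr7:142387908-142387937, minus strand: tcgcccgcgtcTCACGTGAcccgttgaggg
Ctsa, chr2:164833749-164833778, plus strand: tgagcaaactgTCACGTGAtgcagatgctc
Ctsa, chr2:164833766-164833795, plus strand: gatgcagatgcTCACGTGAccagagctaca
Lamp1, chr8:13159081-13159160, plus strand: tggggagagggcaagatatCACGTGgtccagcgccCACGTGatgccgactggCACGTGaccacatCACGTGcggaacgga
Atp6v0b, chr4:117887330-117887389, minus strand: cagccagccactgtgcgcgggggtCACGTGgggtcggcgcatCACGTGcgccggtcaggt
The RefSeq starts of Ctsd and Ctsa lie 5160 bp and 900 bp from the start of the transcript listed in the expression table, so that their windows belong to other starts of those genes. These matches are descriptions of the letters and no factor's binding was measured.

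The deposited value is a whole-number score that the authors had already normalized between mice. Its total per mouse was between 17649654 and 17657159 and its median was 352 in every mouse, so that depth cannot be read from the scores and is unknown here. All genes had a score of 64 or more in at least 2 mice. Of the members, Atp6v0a4 reached that value only in 2 mice given hWJ-MSCs, so its presence in the table depends on the group in which it was high. Another 17 symbols of these families, among them Atp6v1b1, Atp6v0e2, Ctsk and Lamp3, had no row in the expression table. Ubiquitous and restricted members could thus be compared only where they had a row. Replicate 4 of Con A + PBS stood furthest from its group, with 973 genes more than 2-fold from the group mean against 110 to 430 in the other 11 mice. The 8 hepatocyte markers all had rows, with Alb at the shared largest score of 341028 in every mouse, and their summed score was 961137 to 1169109 in control mice, 693228 to 722299 in Con A + PBS mice and 716945 to 775394 in mice given hWJ-MSCs. Of these 8, Apoa1, Ttr and Cyp2e1 were called lower after Con A and none higher. These are 37.5% of the list, where 19.2% of all genes were called lower and 38.8% either way. The other 5 were not called. Among these, Alb and Cps1, the latter at 147960, had the same score in every mouse and could not be called.

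Differences are log2 fold changes of (score + 1) from limma fitted to all 12 mice, given with their SE and with Benjamini-Hochberg adjusted p-values over all genes. A member was called where the adjusted p was below 0.05 and the fold change above 1.5. The addition of 1 understates the change of members with low scores.

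The question of the first comparison was what Con A did to these transcripts. Of the 30 members, 15 were called higher and 4 lower in Con A + PBS than in control livers, where 19.5% of all genes were called higher and 19.2% lower, 38.8% in all. Without overlap between the 4 mice of each group, 15 members lay higher and 5 lower, where 27.1% and 23.4% of all genes did. The median log2 fold change was 0.57 over the members and 0.05 over all genes. Of the 18 pump genes 12 were called higher and 1 lower, and of the 10 cathepsins 2 were called higher (Ctsl and Ctsz) and 3 lower (Ctsd, Ctsf and Ctsh). Among the 27 ubiquitous members 14 were called higher and 3 lower.

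The second comparison asked what hWJ-MSCs changed after Con A. Only Ctsh was called higher and Atp6v0a2 lower, 1 each of 30 members, where 4.2% and 4.38% of all genes were called, 8.58% in all. Without overlap, 3 members lay higher and 4 lower, where 11.9% and 11.6% of all genes did. Unadjusted, 11 members, or 36.7%, had a p below 0.05, near the 34.6% of all genes. Against control livers, 6 members of the Con A + hWJ-MSCs group were called higher and 2 lower, where 13.6% and 13.1% of all genes were called. In all, 26.7% of the members and 26.7% of all genes were called there. Without overlap, 15 lay higher and 3 lower, where 20.6% and 17.3% of all genes did. The first 2 comparisons share the Con A + PBS mice, and both comparisons with control share the control mice, so the values are given side by side.

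**Figure D1:**
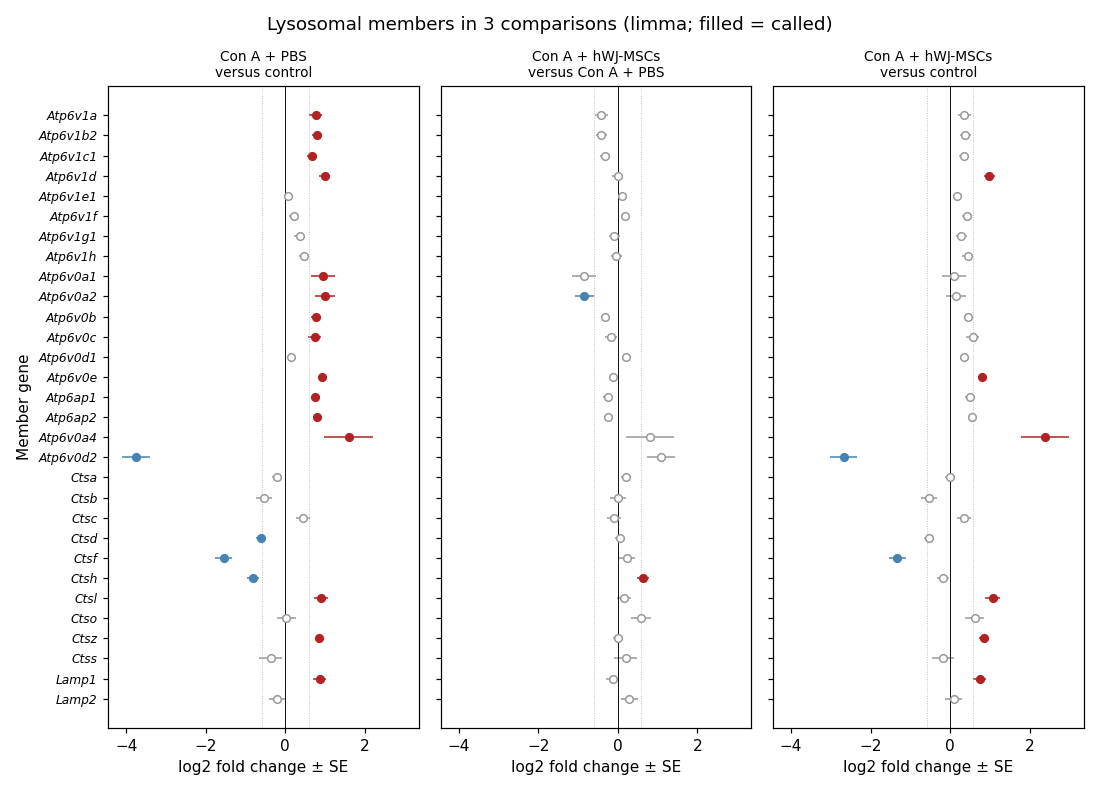
Log2 fold change of (score + 1) of the 30 members in the 3 comparisons, with bars for the SE of the limma fit over 12 mice and dotted lines at a fold change of 1.5. Filled points were called, red higher and blue lower, and the panels share one axis. Atp6v0d2 lies far to the left in both comparisons with control, and most pump genes lie to the right after Con A.

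In the V1 sector, Atp6v1a, the subunit that binds and splits ATP, had scores of 454, 776, 672 and 826 in control, 1224, 1088, 1040 and 1192 in Con A + PBS, and 855, 760, 862 and 948 in Con A + hWJ-MSCs mice. All 4 Con A + PBS mice lay above all 4 control mice and above all 4 mice given hWJ-MSCs. The rise after Con A was 0.77 ± 0.16 on the log2 scale (SE, adjusted p = 0.0017), and the difference of hWJ-MSCs from Con A + PBS was -0.41 ± 0.16 (adjusted p = 0.0985), which did not pass.

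Atp6v1d, part of the central shaft, had scores of 424, 431, 565 and 377 in control, 972, 862, 867 and 828 in Con A + PBS, and 985, 722, 994 and 844 in Con A + hWJ-MSCs mice. Both Con A groups lay above every control mouse and overlapped each other. It rose by 0.99 ± 0.14 after Con A (adjusted p = 8.83e-05) and was 0.98 ± 0.14 above control with hWJ-MSCs (adjusted p = 0.000181).

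Atp6v1b2, the partner of A in the catalytic ring, and Atp6v1c1, a stator subunit, were also called after Con A, at 0.80 and 0.66. Without control replicate 1, Atp6v1c1 was not called, at 0.57. The other V1 members were not called in that comparison. Atp6v1e1 and Atp6v1f differed by 0.08 and 0.22, and Atp6v1g1 and Atp6v1h by 0.36 and 0.47, adjusted p = 0.0395 and 0.00966, under the fold threshold. In all, 4 of 8 ubiquitous V1 subunits, 5 of 6 ubiquitous V0 subunits and both accessory proteins were called higher, where 19.5% of all genes were, and a difference between the sectors was not tested.

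In the V0 sector, Atp6v0e, a small membrane subunit, had scores of 616, 570, 602 and 563 in control, 1228, 1040, 1134 and 1074 in Con A + PBS, and 1116, 840, 1081 and 1086 in Con A + hWJ-MSCs mice. The control values did not overlap those of either Con A group. The rise was 0.93 ± 0.11 after Con A (adjusted p = 2.10e-05) and 0.80 ± 0.11 with hWJ-MSCs against control (adjusted p = 0.000116).

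Atp6v0a1 and Atp6v0a2 encode alternative forms of the large a subunit, which holds the proton path and guides the pump to its compartment. Atp6v0a2 had scores of 98, 222, 194 and 223 in control, 392, 270, 388 and 364 in Con A + PBS, and 182, 193, 160 and 257 in Con A + hWJ-MSCs mice. The Con A + PBS mice were above all others, and the remaining groups overlapped. It rose by 0.99 ± 0.25 after Con A (adjusted p = 0.00453) and was the pump gene called lower with hWJ-MSCs, at -0.84 ± 0.25 (adjusted p = 0.0455). That last call was lost in 8 of 12 fits with 1 mouse left out and in the fit without a trend, with the adjusted p reaching 0.112.

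Atp6v0a1 had scores of 1050, 784, 1090 and 992 in control, 1686, 1130, 1540 and 4166 in Con A + PBS, and 1050, 875, 955 and 1324 in Con A + hWJ-MSCs mice. Replicate 4 of Con A + PBS was far above the others of its group. The rise after Con A was 0.94 ± 0.31 (adjusted p = 0.0208), and it was no longer called when that mouse or control replicate 2 was left out, with 0.56 the lowest of these fits. The difference with hWJ-MSCs was -0.85 ± 0.31 (adjusted p = 0.0793). It was -0.46 without replicate 4 of Con A + PBS, and it was called without replicate 2 of that group, at -1.09, and with the replicate number as a block. Without replicate 4 of Con A + PBS the rise of Atp6v0c, the ring subunit that rotates the protons, was also not called.

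Atp6v0d1, which couples the shaft to the ring, had scores of 1110, 1090, 1123 and 1006 in control, 1254, 1100, 1201 and 1190 in Con A + PBS, and 1282, 1195, 1496 and 1540 in Con A + hWJ-MSCs mice. Control and Con A + PBS mice overlapped, with a difference of 0.13 ± 0.10 (adjusted p = 0.287). This subunit has the 8-letter match printed above, as do Atp6v0e and Atp6v1a, which rose, Ctsd, which was called lower, and Ctsa, which was not called. Of the members with only the shorter CACGTG, Atp6v0b, Ctsl and Lamp1 were called higher after Con A and Ctsf lower.

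Of the accessory proteins, Atp6ap1, which helps to assemble V0, had scores of 904, 1162, 1046 and 1018 in control, 1869, 1694, 1656 and 1706 in Con A + PBS, and 1378, 1300, 1458 and 1682 in Con A + hWJ-MSCs mice. Atp6ap2, also known as the prorenin receptor, had 548, 648, 666 and 584, then 1124, 988, 960 and 1162, and then 921, 792, 922 and 966. Both were higher in every Con A mouse of either group than in any control mouse. The rises after Con A were 0.75 ± 0.11 for Atp6ap1 (adjusted p = 0.000108) and 0.79 ± 0.11 for Atp6ap2 (adjusted p = 6.39e-05). The transcript listed for Atp6ap2 is a retained-intron form in GENCODE M21 and that of Atp6v0c a processed transcript, and Atp6v0c has 2 named pseudogenes, so reads of these genes may be divided between copies or forms.

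**Figure D2:**
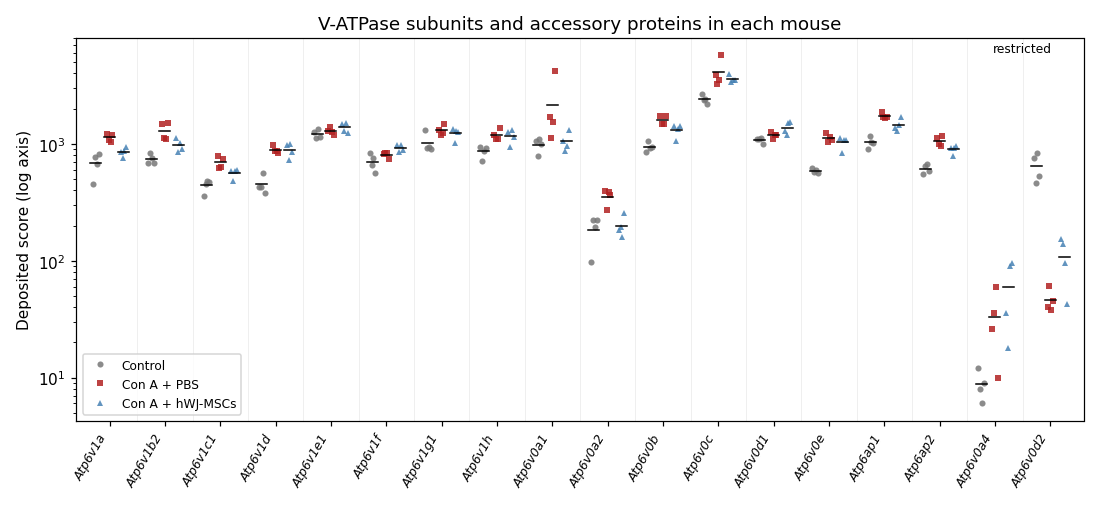
Deposited score on a log axis of each V-ATPase gene in each of the 12 mice, with a black line at the group mean. Grey circles are control, red squares Con A + PBS and blue triangles Con A + hWJ-MSCs mice, and the restricted subunits Atp6v0a4 and Atp6v0d2 are the last pair. Atp6v0d2 is 462 to 831 in control and 38 to 61 in Con A + PBS mice.

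Of the restricted subunits, Atp6v0d2, made in osteoclasts and macrophages, on mm10 chr4:19876841-19922605, had scores of 751, 462, 831 and 527 in control, 40, 61, 38 and 45 in Con A + PBS, and 152, 140, 96 and 43 in Con A + hWJ-MSCs mice. Every control mouse was far above every Con A mouse, and the Con A groups overlapped through replicate 4 of the mice given hWJ-MSCs. The fold change was 13.5 lower after Con A, -3.76 ± 0.34 on the log2 scale (adjusted p = 3.70e-06), and -2.67 ± 0.34 with hWJ-MSCs against control (adjusted p = 9.29e-05). The difference between the Con A groups, 1.08 ± 0.34, did not pass (adjusted p = 0.0539). It was called when replicate 2 of Con A + PBS or replicate 4 of Con A + hWJ-MSCs was left out, and fits without 1 mouse gave 0.87 to 1.47. With the replicate number as a block, or by the unadjusted p, it was called too.

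Within a mouse, Atp6v0d2 minus Atp6v0d1 on the log2 scale was -0.79 ± 0.36 for control (SD, n = 4), -4.68 ± 0.37 for Con A + PBS and -3.81 ± 0.97 for Con A + hWJ-MSCs mice. It differed between Con A + PBS and control by -3.89 ± 0.26 (SE, exact two-sided permutation p = 0.02857, the smallest that 4 against 4 allows, 0.04286 over the 3 pairs). Between the Con A groups the difference was 0.87 ± 0.52 (exact permutation p = 0.171, adjusted 0.257).

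The Kupffer cell markers moved with Atp6v0d2. All 7 of them were called lower after Con A, where 19.2% of all genes were. Their summed score was 3572 to 5390 in control, 281 to 562 in Con A + PBS and 248 to 887 in Con A + hWJ-MSCs mice, with none at 0. Of these 7, Vsig4, Timd4 and Folr2 reached 64 in fewer than 2 of the Con A mice, so their rows passed the low-score limit only through the control group, where they are high. Clec4f, a receptor of Kupffer cells, fell by 4.90 on the log2 scale. Of 8 sinusoidal endothelial markers, 5 were called lower and 1 higher after Con A, where 19.2% and 19.5% of all genes were. Their sums were 2742 to 3961, 1215 to 1817 and 1508 to 1938 in the same order of groups, with none at 0. Among those called lower, Clec4g and Oit3 reached 64 in fewer than 2 of the Con A mice. Their rows thus also passed only through the control group. Of 7 stellate cell and fibroblast markers with a row, 3 were called lower and 0 higher, where 19.2% and 19.5% of all genes were. In all, 42.9% of this list and 38.8% of all genes were called. The sums of the list overlapped, at 4949 to 7942, 6219 to 7253 and 4638 to 10105, with none at 0. The part of these cells in the result was not tested, and in bulk tissue fewer cells of a type and less RNA per cell cannot be told apart.

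Atp6v0a4, a form of the a subunit in acid-secreting epithelia, on mm10 chr6:38048483-38124586, had scores of 12, 8, 6 and 9 in control, 26, 36, 60 and 10 in Con A + PBS, and 36, 18, 90 and 96 in Con A + hWJ-MSCs mice. The scores were low and spread widely, and only the mice given hWJ-MSCs lay wholly above control. The rise was 1.59 ± 0.61 after Con A (adjusted p = 0.0407), a call lost in 7 of 12 fits with 1 mouse left out, after quantile normalization, with a pseudocount of 10 and with the replicate block. With hWJ-MSCs it was 2.39 ± 0.61 above control. Its row reached 64 only through that last group, so it had to be high there, and this difference is given as a description without its p. It is 1 of the 6 members called higher in that comparison.

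Within a mouse, Atp6v0a4 minus Atp6v0a1 was -6.68 ± 0.42 for control (SD, n = 4), -6.03 ± 1.78 for Con A + PBS and -4.38 ± 0.98 for Con A + hWJ-MSCs mice. The difference after Con A was 0.64 ± 0.92 (SE, exact permutation p = 0.514). It was 0.13 with a pseudocount of 10, 0.19 after quantile normalization and 0.19 to 1.49 with 1 mouse left out, the highest without replicate 4 of Con A + PBS and the lowest without replicate 3. The difference was 2.30 ± 0.53 with hWJ-MSCs against control, again a description for the same reason. It was 1.65 after quantile normalization. The 4 cholangiocyte markers with a row summed to 2336 to 4493 in control, 2396 to 13277 in Con A + PBS and 2249 to 6488 in Con A + hWJ-MSCs mice, with Cftr at 0 in a mouse of the last group. Nearly all of that sum was Spp1, without which the other 3 gave 252 to 384, 404 to 1047 and 324 to 467. After Con A only Sox9 was called, higher, and with hWJ-MSCs against control Sox9 was called higher and Epcam and Cftr lower. Epcam and Cftr each reached 64 in fewer than 2 of the Con A mice. Their rows passed the low-score limit only through the control group, which favoured these lower calls. The part of these markers in the Atp6v0a4 values was not tested.

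**Figure D3:**
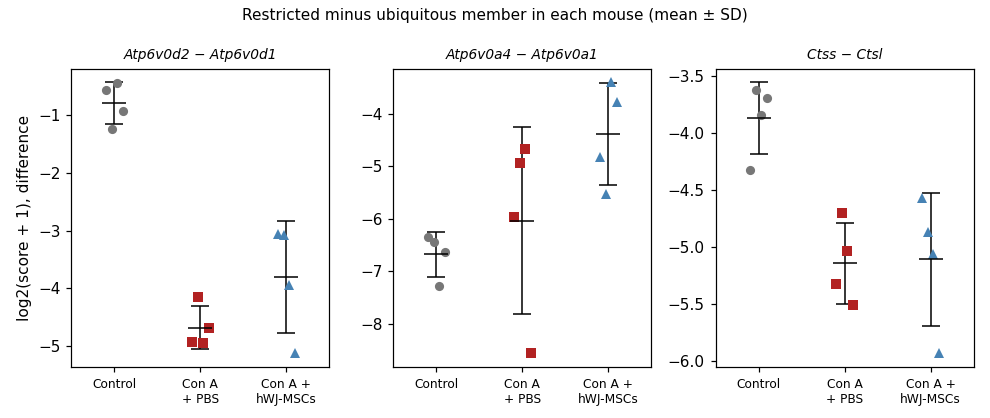
Log2(score + 1) of the tissue-restricted member minus that of its ubiquitous partner in each mouse, with the mean and SD of 4 mice in black, for Atp6v0d2 and Atp6v0d1, Atp6v0a4 and Atp6v0a1, and Ctss and Ctsl. The axes differ between panels. The control mice lie above all Con A mice in the left and right panels.

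Ctss, a cysteine protease that trims the invariant chain in antigen-presenting cells, had scores of 654, 760, 570 and 632 in control, 404, 675, 458 and 514 in Con A + PBS, and 872, 711, 623 and 287 in Con A + hWJ-MSCs mice. The 3 groups overlapped, and the difference after Con A was -0.37 ± 0.28 (adjusted p = 0.28). Ctsl, its broadly expressed relative, had 13131, 9344, 8198 and 8198, then 16250, 17600, 15006 and 23483, and then 20780, 20780, 20780 and 17600. All Con A mice were above all control mice. Ctsl rose by 0.90 ± 0.18 after Con A (adjusted p = 0.00108) and was 1.06 ± 0.18 above control with hWJ-MSCs (adjusted p = 0.000631). Of the members, 17 have the same score in 2 or more mice, as Ctsl does, and 26.8% of the exon bases of Ctsl lie opposite Gm47123, whose reads cannot be separated because the library kit does not mark strand.

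Ctss minus Ctsl was -3.87 ± 0.32 for control (SD, n = 4), -5.14 ± 0.35 for Con A + PBS and -5.11 ± 0.59 for Con A + hWJ-MSCs mice. The difference after Con A was -1.27 ± 0.24 (SE, exact permutation p = 0.02857, 0.04286 over the 3 pairs), and that between the Con A groups was 0.03 ± 0.34 (exact permutation p = 0.914). Neutrophil markers, with 6 of 9 in the table, were all called higher after Con A, where 19.5% of all genes were. The low-score limit favoured these calls, since fewer than 2 control mice reached 64 for any of these markers. They summed to 67 to 153 in control, 884 to 1868 in Con A + PBS and 827 to 1725 in Con A + hWJ-MSCs mice, with Retnlg and Mmp8 at 0 in a control mouse. Macrophage and monocyte markers, with 7 of 9 in the table, summed to 1549 to 2423, 5268 to 6521 and 2343 to 3865 in the same order of groups, none at 0. Of these 7, 4 were called higher and 2 lower after Con A, where 19.5% and 19.2% of all genes were. Without Cd14, a receptor for bacterial products, the other 6 summed to 1494 to 2363, 1097 to 1236 and 993 to 1790, so that the higher sum came from that gene. Cd14 and Ly6c2, among the 4 called higher, were below 64 in every control mouse, so the low-score limit favoured these calls too. Of 8 dendritic cell markers 3 had a row, of which Xcr1 and Clec9a were called lower and Fscn1 higher, where 19.2% and 19.5% of all genes were. Their sums were 375 to 466, 325 to 405 and 316 to 425, with none at 0. Of 10 T and NK cell markers 4 had a row, all below 64 in every control mouse and all called higher, where 19.5% of all genes were. Their sums were 24 to 58, 524 to 973 and 502 to 1042, with Cd8a at 0 in a control mouse. The part of these cells in the cathepsin values was not tested.

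Among the ubiquitous cathepsins, the largest fall after Con A was that of Ctsf, a cysteine protease with an extended propeptide, on mm10 chr19:4855129-4860912. Its scores were 192, 325, 262 and 388 in control, 102, 112, 102 and 72 in Con A + PBS, and 90, 122, 130 and 110 in Con A + hWJ-MSCs mice. The control mice lay above all the others, and the Con A groups overlapped. It fell by 1.55 on the log2 scale after Con A (SE 0.21, adjusted p = 7.57e-05) and was -1.33 ± 0.21 from control with hWJ-MSCs (adjusted p = 0.00046).

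Ctsh, an aminopeptidase, had scores of 2496, 3801, 3161 and 3124 in control, 1854, 2057, 1936 and 1334 in Con A + PBS, and 2576, 3006, 3006 and 2468 in Con A + hWJ-MSCs mice. The Con A + PBS mice lay below all the others, and the remaining groups overlapped. It fell by 0.81 on the log2 scale after Con A (SE 0.16, adjusted p = 0.000964) and was 0.64 ± 0.16 higher with hWJ-MSCs (adjusted p = 0.0302). The second call was lost in 5 of 12 fits with 1 mouse left out, with 0.50 the lowest value.

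Ctsz, a carboxypeptidase, rose by 0.86 ± 0.12 after Con A (adjusted p = 7.18e-05), from 2968 to 3534 in control to 5380 to 6150 in Con A + PBS mice, and was 0.85 above control with hWJ-MSCs. Ctsd, the main aspartic protease of lysosomes, went from 5027 to 6928 in control to 3395 to 4181 in Con A + PBS mice, a difference of -0.60 ± 0.12 (adjusted p = 0.0013) just past the fold threshold, and was not called in 3 of 12 fits with 1 mouse left out. Its listed transcript belongs to Gm49369 in GENCODE M21, which covers 34.4% of its exon bases on the same strand, so its score is uncertain. Ctsb, a cysteine protease, differed by -0.54 ± 0.20 (adjusted p = 0.034), with no overlap between groups but under the fold threshold. Ctsa, Ctsc and Ctso were not called in any comparison, and Ctsa, which has the 8-letter match, differed by -0.22.

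Ctso, a cysteine protease, had scores of 1198, 990, 1187 and 1158 in control, 1150, 1550, 1619 and 612 in Con A + PBS, and 1719, 1685, 1830 and 1685 in Con A + hWJ-MSCs mice. All mice given hWJ-MSCs lay above all the others. The difference was 0.61 ± 0.24 against control (adjusted p = 0.0579) and 0.58 ± 0.24 against Con A + PBS (adjusted p = 0.107). Against control it was called without replicate 2, 3 or 4 of Con A + PBS and in the fit of only the 8 mice compared. Its values are given because the groups did not overlap, a choice made after they were seen.

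**Figure D4:**
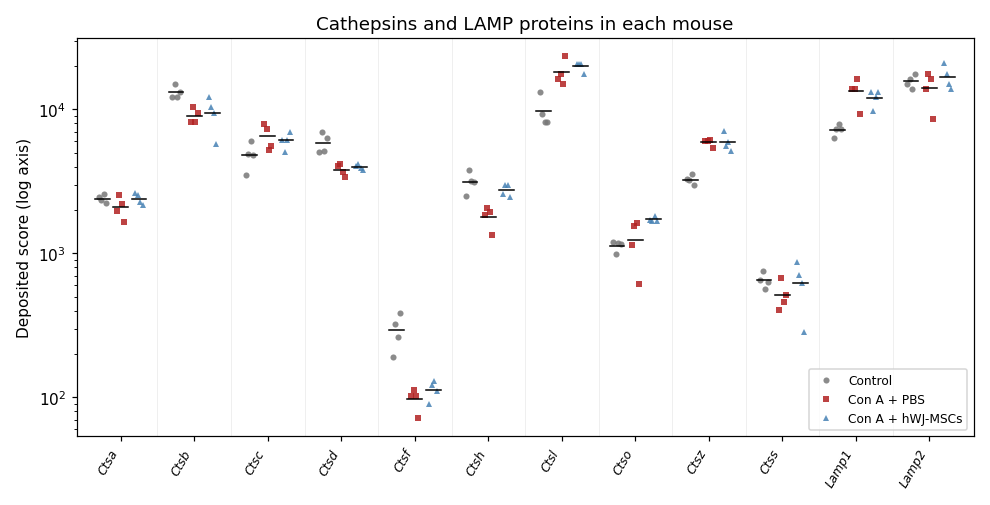
Deposited score on a log axis of each cathepsin and LAMP gene in each of the 12 mice, with a black line at the group mean and the symbols as for the pump genes. Ctsl, Ctsz and Lamp1 are higher and Ctsd, Ctsf and Ctsh lower in Con A + PBS than in control mice.

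Of the membrane proteins, Lamp1, on mm10 chr8:13159135-13175338, had scores of 6287, 7311, 7902 and 7311 in control, 13888, 13888, 16250 and 9344 in Con A + PBS, and 13131, 9812, 12169 and 13131 in Con A + hWJ-MSCs mice. Every Con A mouse was above every control mouse. The rise after Con A was 0.87 ± 0.17 (adjusted p = 0.000986) and that with hWJ-MSCs against control 0.74 ± 0.17 (adjusted p = 0.00442). Its promoter, shown above, holds 4 copies of CACGTG.

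Lamp2, whose product also serves as receptor in chaperone-mediated autophagy, had scores of 15120, 16359, 13958 and 17671 in control, 13958, 17671, 16359 and 8542 in Con A + PBS, and 20910, 17671, 15120 and 13958 in Con A + hWJ-MSCs mice. All groups overlapped, with a difference of -0.21 ± 0.21 after Con A (adjusted p = 0.431). Lamp1 minus Lamp2 was -1.13 ± 0.21 for control, -0.06 ± 0.20 for Con A + PBS and -0.48 ± 0.34 for Con A + hWJ-MSCs mice (log2, SD, n = 4), given as a description.

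The other genes of the lysosome in the table comprised 86 of 90 listed. Of 34 acid hydrolases, 5 were called higher and 9 lower after Con A, and of 18 membrane proteins and transporters 5 and 2. These are 41.2% and 38.9% of each list, near the 38.8% of all genes. The highest were Cd63, a tetraspanin, at 3.96, Cd68, a LAMP family glycoprotein of macrophages, at 2.89, and Cstb, a cytosolic inhibitor of cathepsins, at 2.26. The lowest were Gm2a, an activator of ganglioside breakdown, at -1.89, the phospholipase Pla2g15 at -1.11 and the acid lipase Lipa at -1.08.

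Tcirg1, the a3 subunit of the pump, rose by 0.93 ± 0.14 (adjusted p = 0.000158). Tfeb, the transcription factor named above, had scores of 103, 144, 176 and 144 in control, 64, 90, 88 and 76 in Con A + PBS, and 140, 110, 122 and 140 in Con A + hWJ-MSCs mice. Its Con A + PBS values lay below all others. It fell by 0.81 on the log2 scale after Con A (adjusted p = 0.00178) and was 0.69 ± 0.17 higher with hWJ-MSCs (adjusted p = 0.0316). Its relatives Tfe3 and Mitf were not called, at 0.39 and 0.10 after Con A and at -0.75 and -0.35 with hWJ-MSCs against Con A + PBS. For Tfe3 in the latter comparison all 4 mice given hWJ-MSCs lay below all 4 others (adjusted p = 0.0871). With hWJ-MSCs, Cstb, the glycosidase Gla and the legumain gene Lgmn were called lower, by -0.72, -0.65 and -0.61, and Rogdi and Lamtor4 higher, by 0.68 and 0.64.

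**Figure D5:**
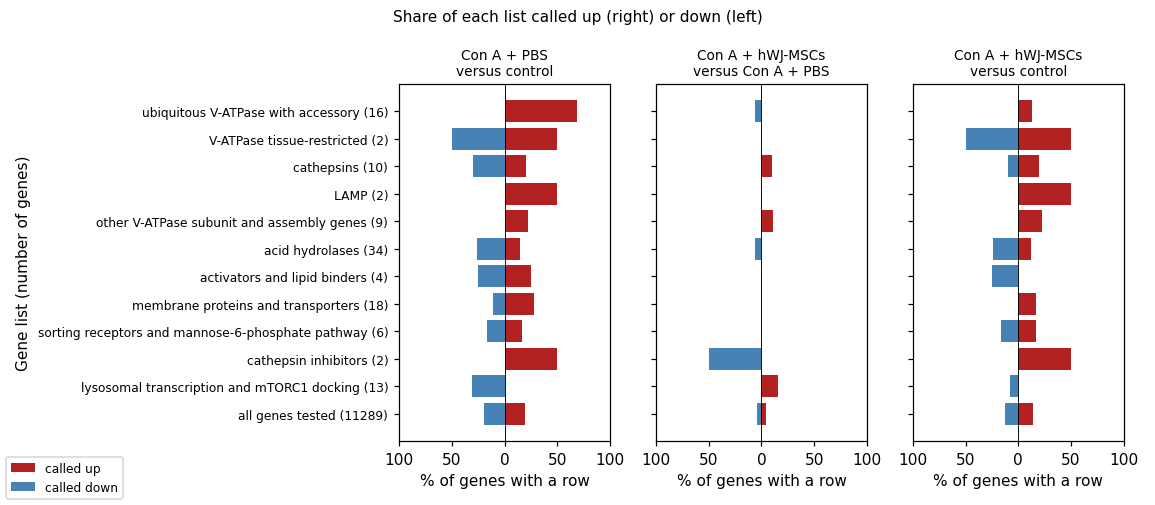
Percent of the genes with a row in each list that were called higher (red, right) or lower (blue, left) in each comparison, with the number of genes in brackets. The bottom bar is for all 11289 genes, where 19.5% were called higher and 19.2% lower after Con A.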

How the data were processed

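Livers of 12 mice were sequenced as 150 bp paired-end reads from poly-A selected libraries, and Bowtie2 2.2.1, RSEM 1.2.18 and mm10 are named in the submitters' processing notes. The authors deposited 1 table of whole-number scores, already normalized between mice by a method not given in the sources used here, so count tests were not run. Samples were grouped by their labels. Cell number and mouse age are given as in the labels, from which the study's methods depart. After log2(score + 1) transformation, limma 3.58.1 (R 4.3.3; lmFit and trended eBayes) was run over all 12 mice together with no covariates, with Benjamini-Hochberg adjustment over 11289 genes. Pairs of restricted and ubiquitous members were tested by exact two-sided permutation of the mice (scipy 1.17.1), adjusted over 3 pairs. The script was tested on simulated data. The members, lists and tests were chosen with earlier results of these data known. Values in every mouse are given for restricted members and their partners, members called between the Con A groups, the 8 members changed most after Con A, Atp6ap1, Atp6ap2, Atp6v1a, Lamp1 and Lamp2. Other lysosomal genes are the 3 called genes changed most in each direction after Con A, those called between the Con A groups, and Tcirg1, Tfeb, Tfe3 and Mitf. Alternatives were median centring, quantile normalization, 10 as pseudocount, a minimum mean score of 100, no trend, the 8 mice compared, the unadjusted p, other fold thresholds, 1 mouse left out in turn and the replicate number as a block. The median score was the same in every mouse, so median centring could not change a fold change. Transcripts were matched to GENCODE M21 by identifier, with 30 of 30 members found and 21 with the same start and end.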

Additional observations from a re-analysis of the deposited data

Results flagged for a closer look

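Among 90 groups of 4 scores, 5 had 1 mouse far from the other 3, and chance gives about 1 in 20. Replicate 2 of Con A + hWJ-MSCs was low for Atp6v0e, at 840, and for Atp6v1c1, at 479. Control replicate 1 was high for Atp6v1g1, at 1316. Replicate 4 of Con A + hWJ-MSCs was low for Ctsl, at 17600, where the other 3 were tied, and replicate 4 of Con A + PBS was low for Ctsz, at 5380.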

How the results depend on the processing

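Leaving out 1 mouse at a time gave 13 to 15 members called higher and 3 to 5 lower after Con A, 0 to 2 and 0 to 2 between the Con A groups, and 6 to 8 and 2 to 3 with hWJ-MSCs against control. A fold change above 2 left 1 higher, Atp6v0a4, whose call several alternatives lose, and 2 lower after Con A, 0 and 0 between the Con A groups and 2 higher with hWJ-MSCs against control, while no fold threshold gave 15 higher and 4 lower there. Between the Con A groups the unadjusted p gave 2 higher and 2 lower, and the fit without a trend 0 lower. The replicate numbers were not used as pairs in the main fits. The correlation of same-numbered mice ran from -0.118 to 0.375, and that of different-numbered mice from -0.3846 to 0.1406. Same-numbered mice were above 0.1 in all pairs of replicate 4, at 0.1681, 0.112 and 0.2443, but not in every pair. Not every mouse correlated best with its own number. Whether some numbers share a batch was not tested. With the replicate number as a block, 2 members were called higher and 2 lower between the Con A groups. The pair difference Atp6v0a4 minus Atp6v0a1 with hWJ-MSCs against control was 1.65 after quantile normalization. The causes were not tested, beyond the threshold itself where that was what changed. The pair difference Ctss minus Ctsl between the Con A groups, 0.03, took either sign when 1 mouse was left out, from -0.14 to 0.31. No called value changed sign under the alternatives, of which median centring could not change any. Scores carry no depth, so what depth limits is unknown.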
